A study of Caenorhabditis elegans with 15 samples.

Results

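The 9 genes described here, syp-1, syp-2, syp-3, syp-4, him-3, htp-1, htp-2, htp-3 and rec-8, encode proteins of the synaptonemal complex and of the meiotic chromosome axis in Caenorhabditis elegans. They were chosen by gene name, with earlier results of these data known, and make up 9 of the 46904 gene identifiers counted in the series. Their transcripts were counted by mRNA sequencing in whole adult worms grown on solid medium, with 3 libraries for each of 5 genotypes and 15 libraries in all. The fbf-2 worms were mutant in the gene for FBF-2, and the 3xlnc worms in the long intervening non-coding RNA genes linc-4, linc-29 and linc-7. Both were compared with WT, the N2 wild type. The fbf-1 3xlnc worms carried the fbf-1 mutation together with the same linc mutations and were compared with fbf-1 worms, so FBF-1 was affected in both groups of that comparison. No alleles are named in the labels. Nor do they tell if replicate libraries were grown apart, and p-values here reflect library-to-library spread that could be technical only.

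In meiosis, homologous chromosomes pair and are joined along their length by the synaptonemal complex, a zipper-like structure whose central region is built from SYP proteins. The SYP proteins depend on one another for assembly and span the gap between the axes of the homologues. Each axis is laid down by cohesin, including the meiotic kleisin REC-8, and carries the HORMA-domain proteins HTP-3, HIM-3, HTP-1 and HTP-2. In the adult hermaphrodite gonad these proteins load onto chromosomes as germ cells leave the stem cell pool. FBF-1 and FBF-2 are closely related PUF-family proteins that bind the 3′ untranslated regions of mRNAs in the stem cell region and repress them, and mRNAs for synaptonemal complex proteins are among their known targets.

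In the authors' deposited table all 9 genes carry the flag for FBF-2-bound genes, which marks 2019 identifiers or 4.30% of the total. The flag for germline-enriched genes is on 7 of the 9 and is absent from htp-2 and syp-4. How either flag was defined is not stated. The annotated 3′ untranslated regions, the part of the mRNA that PUF proteins bind, run from 94 bases in syp-1 to 229 bases in him-3. In WBcel235 coordinates syp-1 lies on chromosome V from 16404274 to 16407701 and syp-2 on chromosome V from 5536487 to 5537717, both on the plus strand. On chromosome I lie syp-3 (8663045 to 8664445, minus strand), syp-4 (6847511 to 6849923, plus strand) and htp-3 (4827072 to 4829791, plus strand). On chromosome IV lie him-3 (6977508 to 6978765, plus strand), htp-1 (5390189 to 5391557, minus strand), htp-2 (6419522 to 6420898, plus strand) and rec-8 (13349122 to 13353193, minus strand). The paralogues htp-1 and htp-2 stand 1027964 bp apart, and their sequences were not compared here. No source used here states how reads that match both were counted, so their separate levels are uncertain.

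Total counts ran from 9068700 to 38453738 per library, and each of the 9 genes had between 356 and 4369 counts in every library. WT replicate 1 was the shallowest library. Ribosomal RNA genes took 4.62% of its counts, but 0.516% and 0.976% in WT replicates 2 and 3. It also held the lowest summed level of the somatic markers and of the germline markers in WT. Results that rest on it are given with and without it. Libraries of fbf-2, 3xlnc and WT are labelled total RNA and those of fbf-1 3xlnc and fbf-1 polyA RNA, so genotype and RNA type cannot be told apart between these sets. No level was tested across them, and a single test, of whether the linc effect differs between backgrounds, sets a difference within one against a difference within the other. The targeted genes followed the labels. The fbf-2 gene was at 6.69 ± 0.601 CPM, counts scaled to a common library total, in fbf-2 worms and 28.7 ± 3.14 CPM in WT, and the fbf-1 gene at 8.42 ± 0.157 CPM in fbf-1 3xlnc and 8.11 ± 0.289 CPM in fbf-1 (SD, n = 3 each). The genes linc-4, linc-7 and linc-29 had 0 counts in every 3xlnc and fbf-1 3xlnc library. The fbf-1 gene rose in fbf-2 worms, to 71.3 ± 0.765 CPM against 37.8 ± 2.22 CPM in WT (log2 fold change 0.78, SE 0.111, edgeR adjusted p = 0.00322).

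**Figure D1:**
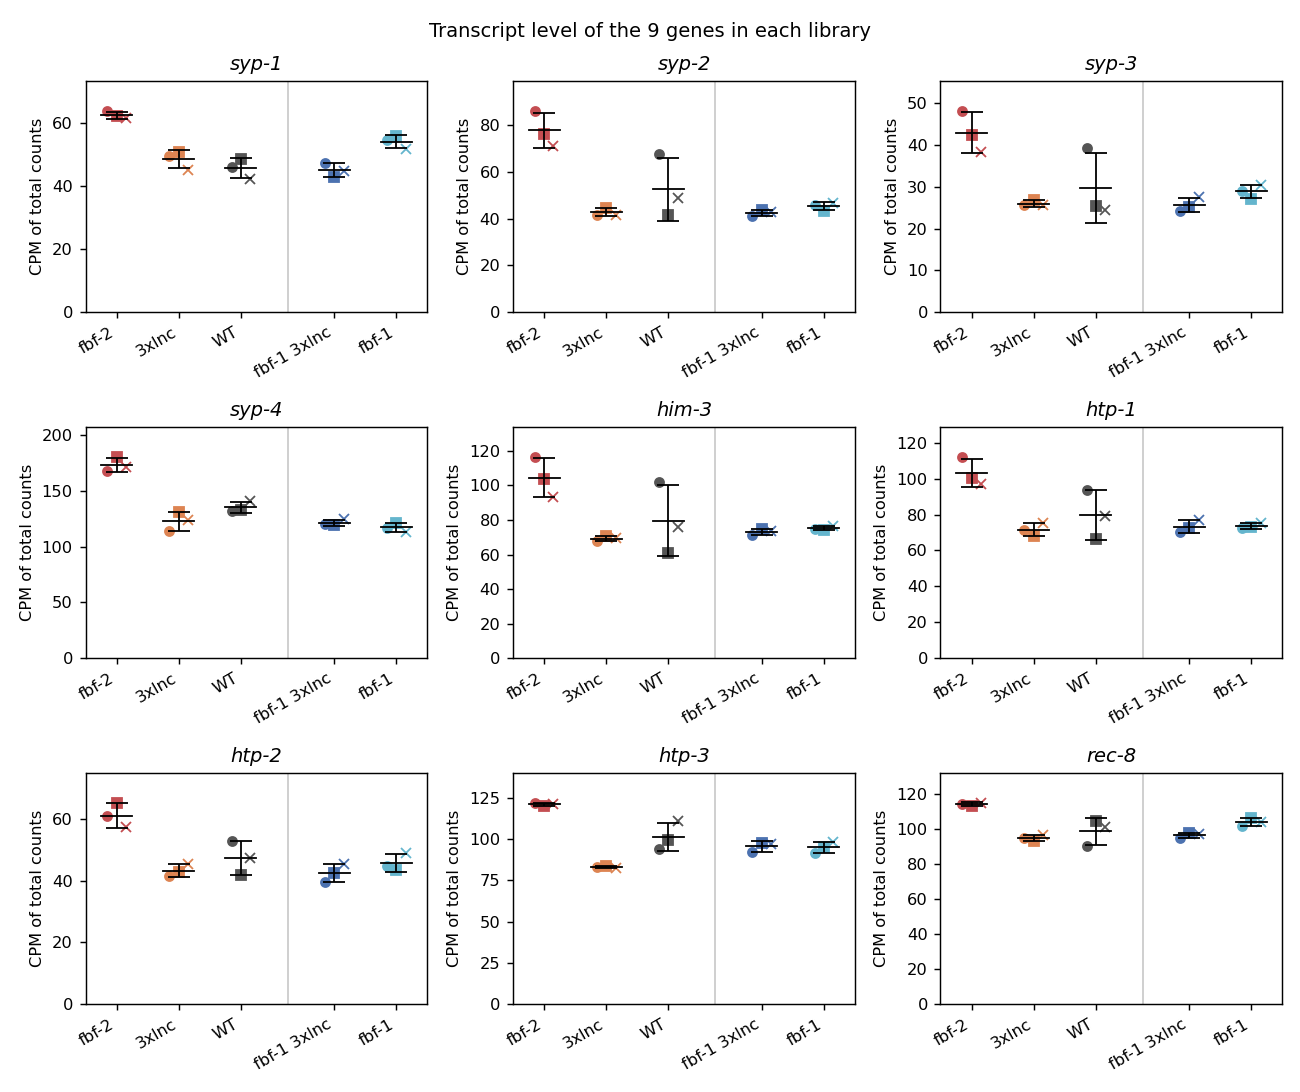
Level of each of the 9 genes in CPM of total counts (y axis) in every library of the 5 genotypes (x axis), with circles, squares and crosses for libraries 1, 2 and 3 and a black bar for the mean ± SD. The fbf-2 libraries sit above all WT libraries for 7 of the 9 genes, and the grey line parts libraries labelled total RNA (left) from those labelled polyA RNA (right).

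Adjusted for length, the axis and central-region genes kept a similar order in all 5 genotypes. Levels per kilobase of annotated exon were highest for him-3, syp-4 and htp-1 in every genotype, and lowest for syp-1 and then syp-3. In fbf-2 worms the mean of him-3 was 89.4 ± 9.81 CPM per kb, that of syp-4 84.8 ± 3.20 and that of htp-1 83.9 ± 6.45 (SD, n = 3), with overlapping ranges. In WT the same genes stood at 68.1 ± 17.6, 66.2 ± 2.46 and 64.8 ± 11.3 CPM per kb, again with overlapping ranges. At the other end, syp-1 was at 20.5 ± 0.386 CPM per kb in fbf-2 worms and 14.98 ± 1.05 in WT, and its range did not overlap that of the next lowest gene, syp-3, in any genotype. Thus the 4 genes of the central region, whose proteins act together, spanned nearly the whole range of length-adjusted levels, with syp-4 near the top and syp-1 at the bottom.

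The middle of the order was held by syp-2, htp-3, htp-2 and rec-8. In fbf-2 worms syp-2 stood apart from htp-3 below it, at 71.1 ± 6.83 against 51.8 ± 0.373 CPM per kb, whereas in WT their ranges overlapped, at 48.05 ± 12.3 and 43.3 ± 3.66 CPM per kb. The length used for syp-1 matters, since its 3053 bp of exon hold only 1467 bp of coding sequence. Per kilobase of coding sequence syp-1 stood at 42.6 CPM in fbf-2 worms and 31.2 CPM in WT, still below each of the other 8 genes in both. The first annotated exon of syp-1 also shares 517 bp with exons of F13A7.14 on the same strand, whose own level was 40.1 to 68.9 CPM, at most 116% of the CPM of syp-1 in the same library. The 3′ end of syp-3 overlaps mrt-1 on the opposite strand by 61 bp of exon, where mrt-1 was at 38.6 to 60.5 CPM, at most 194% of the CPM of syp-3. The gene him-3 overlaps prkl-1 by 24 bp, where prkl-1 had at most 4.04% of the CPM of him-3. No source used here states the strand setting of the counting, so reads in these stretches cannot be told apart.

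**Figure D2:**
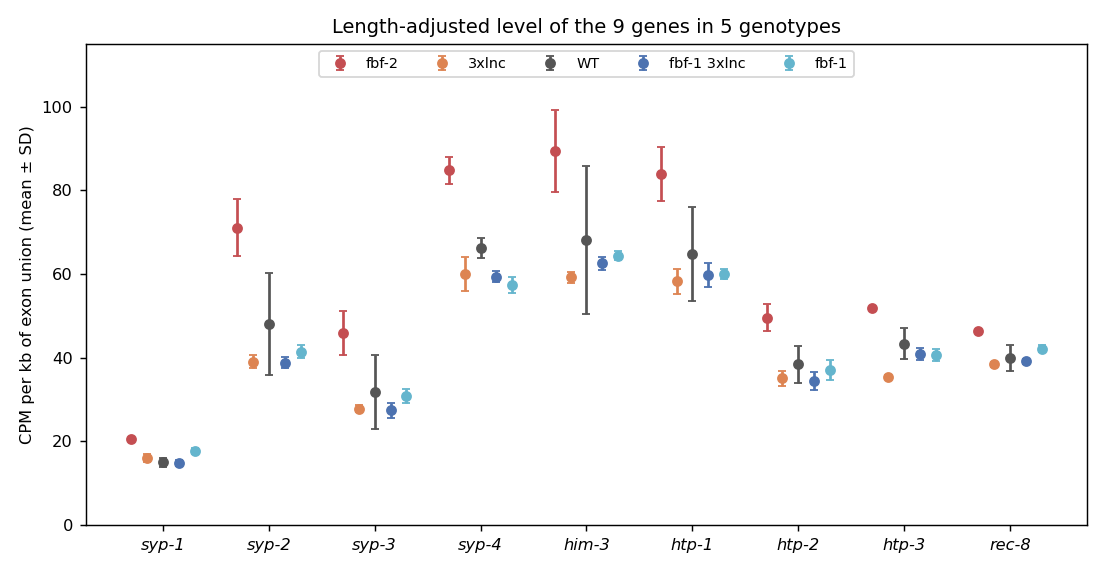
Mean level per kilobase of annotated exon, in CPM per kb with SD over 3 libraries (y axis), for each gene (x axis) in the 5 genotypes. The highest means belong to him-3, syp-4 and htp-1 in each genotype and the lowest to syp-1, from 14.8 in fbf-1 3xlnc to 20.5 in fbf-2.

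The first comparison asked how transcript levels differ when FBF-2 is affected. All 9 genes had a higher mean in fbf-2 worms than in WT, and the summed level of the 9 was 861 ± 32.6 CPM in fbf-2 and 670 ± 47.8 CPM in WT. The fitted log2 fold changes ran from 0.08 for rec-8 to 0.45 for syp-2, with a median of 0.25. They were also positive for 6236 of the 13401 genes tested and for 1110 of the 1839 others with the FBF-2-bound flag. None of the 9 passed the threshold of an adjusted p under 0.05 in edgeR's quasi-likelihood test without a replicate block. This was 0 of 9, where 15.6% of the 13401 genes tested were called in either direction. An unadjusted p under 0.05 was found for 6 of 9, and the share of all genes with one was not counted. DESeq2 called 2, syp-1 and syp-2, with 10.5% of all genes called higher. With the library number as a block, 7 of 9 rose, all but htp-3 and rec-8. The labels do not state this pairing, and it was read from these same libraries, so the blocked p-values are no independent support. In that fit 15.5% of all genes tested were called higher. In whole worms, more germ cells in meiosis and more RNA per cell cannot be told apart.

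Among the central-region genes, syp-2 had the largest fold change. It was at 85.7, 76.1 and 71.0 CPM in the fbf-2 libraries, against 67.4, 41.4 and 48.6 CPM in the WT libraries. The groups did not overlap, and WT replicate 1 was the highest of WT. The log2 fold change was 0.45 (SE 0.140, adjusted p = 0.0585), and 0.46 with the block (SE 0.0881, adjusted p = 0.00228).

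For syp-3 the fbf-2 libraries held 48.0, 42.3 and 38.3 CPM, against 39.3, 25.4 and 24.4 CPM in WT. The ranges overlapped only through WT replicate 1, which exceeded the lowest fbf-2 library. Its log2 fold change was 0.42 (SE 0.157, adjusted p = 0.0977), and 0.43 with the block (adjusted p = 0.00585). For syp-1 the values were 63.9, 62.3 and 61.5 CPM in fbf-2, against 46.2, 48.7 and 42.3 CPM in WT. Here both groups were narrow and lay well apart, with a log2 fold change of 0.32 (SE 0.103, adjusted p = 0.0666), and 0.32 with the block (adjusted p = 0.0174). The overlapping F13A7.14 had a log2 fold change of 0.20 (adjusted p = 0.281), and mrt-1, which overlaps syp-3, one of 0.18 (adjusted p = 0.201).

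The remaining central-region gene, syp-4, was at 168, 180 and 172 CPM in fbf-2, against 132, 133 and 141 CPM in WT. The groups did not overlap, and the log2 fold change was 0.23 (SE 0.0975, adjusted p = 0.145), and 0.23 with the block (adjusted p = 0.0387). Over the 4 syp genes together the summed level was 342 to 365 CPM in fbf-2 and 248 to 285 CPM in WT, and their median log2 fold change was 0.37. In the authors' deposited table, syp-1 (log2 fold change 0.37, adjusted p = 0.0324), syp-2 (0.51, adjusted p = 0.0149) and syp-3 (0.47, adjusted p = 0.0401) passed, and the other 6 genes did not.

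Among the HORMA-domain axis genes the median log2 fold change was 0.25 over the 4, against 0.37 for the 4 syp genes. A difference between these classes was not tested, and syp-4 (0.23) lay below him-3, htp-1 and htp-2. The summed syp level over the summed HORMA level was 0.887 to 0.928 in fbf-2 and 0.818 to 0.922 in WT, with overlap. The level of him-3, whose protein is needed for pairing and for crossovers between homologues, was 116, 104 and 93.6 CPM in fbf-2, against 102, 61.1 and 76.1 CPM in WT. These ranges overlapped, again through WT replicate 1, and the log2 fold change was 0.28 (SE 0.143, adjusted p = 0.208), and 0.29 with the block (adjusted p = 0.0263). HTP-1, which keeps the complex from forming between chromosomes that are not homologous, had its transcript at 112, 100.5 and 96.9 CPM in fbf-2, against 93.8, 66.2 and 79.0 CPM in WT. Its groups did not overlap, by a narrow margin, and its log2 fold change was 0.25 (SE 0.108, adjusted p = 0.140), and 0.26 with the block (adjusted p = 0.0239). The paralogue htp-2 was at 61.0, 65.4 and 57.4 CPM in fbf-2, against 53.0, 42.01 and 47.5 CPM in WT, without overlap. Its log2 fold change was 0.24 (SE 0.0944, adjusted p = 0.112), and 0.24 with the block (adjusted p = 0.0497), at the edge of the threshold.

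The remaining axis genes showed the smallest fold changes. HTP-3, the HORMA-domain protein on which loading of the others depends, had its transcript at 122, 120 and 121 CPM in fbf-2, against 93.9, 99.8 and 111 CPM in WT. The cohesin gene rec-8 was at 114.4, 113.1 and 114.9 CPM in fbf-2, against 90.1, 104.7 and 100.9 CPM in WT. For both genes the fbf-2 libraries were nearly equal to one another in CPM of total counts. On that scale they lay above all WT libraries, of which replicate 1 was the lowest. Their log2 fold changes after TMM scaling, which evens out library composition, were 0.12 for htp-3 (SE 0.110, adjusted p = 0.470) and 0.08 for rec-8 (SE 0.114, adjusted p = 0.675), and neither passed with the block (adjusted p = 0.258 and 0.496).

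**Figure D3:**
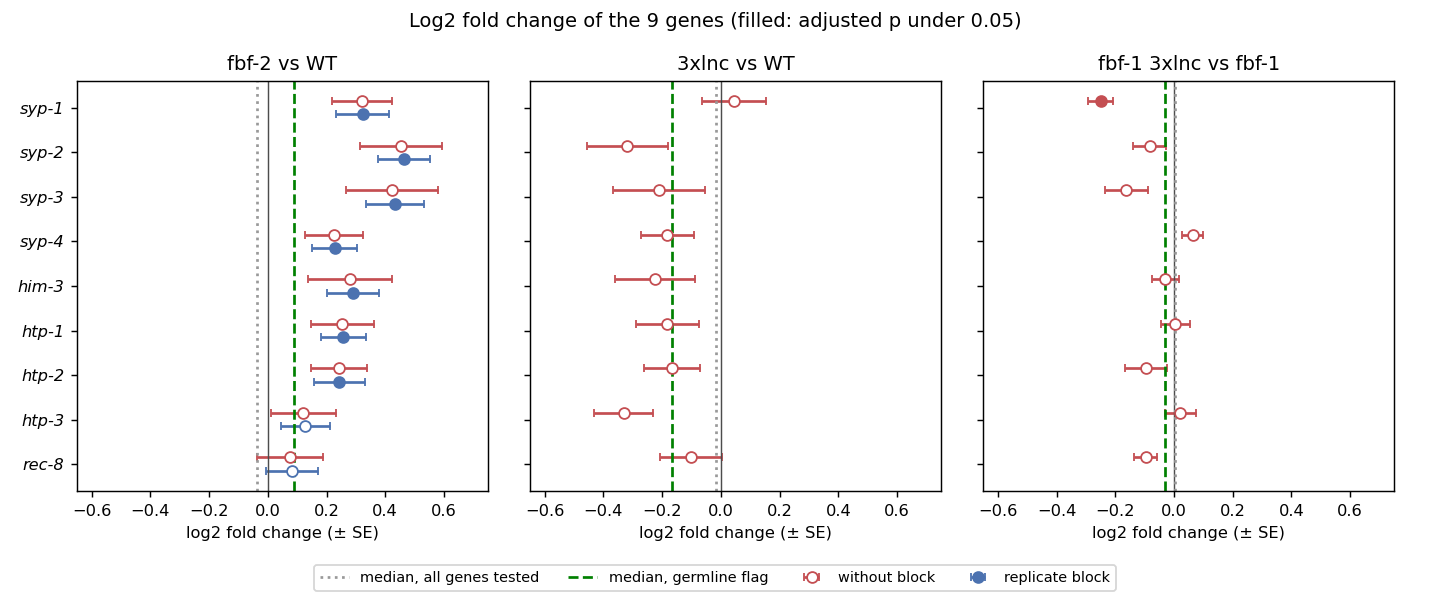
Log2 fold change with SE (x axis) of each gene (y axis) in the 3 comparisons. Red points are from the fit without a block and blue points, for fbf-2 against WT, from the fit with the library number as a block, filled where the adjusted p is under 0.05. In that comparison all 9 lie right of the all-gene median of -0.04, and 7 are filled with the block, whereas only syp-1 is filled in fbf-1 3xlnc against fbf-1.

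In CPM of total counts, the direction was the same throughout within libraries of the same number. All 27 ratios of an fbf-2 library to the WT library of its number were above 1, with log2 ratios of CPM from 0.11 (rec-8, number 2) to 0.88 (syp-2, number 2). The number 2 pair gave the largest ratio for syp-2, syp-3, syp-4, him-3, htp-1 and htp-2, while htp-3 and rec-8 had theirs in the number 1 pair. Same-numbered libraries of these groups deviated from their group means together (correlations across genes of 0.357, 0.248 and 0.165), although the labels state no pairing. The number 3 pair did not stand out, since fbf-2 library 3 correlated with WT library 2 at 0.164. These ratios use CPM of total counts, which TMM scaling lowers in fbf-2 libraries relative to WT libraries 2 and 3. The TMM factors were 1.09 for fbf-2 library 2 and 0.947 for WT library 2, enough to turn the rec-8 ratio of that pair below 1. The share of all genes with every such ratio above 1 was not counted.

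**Figure D4:**
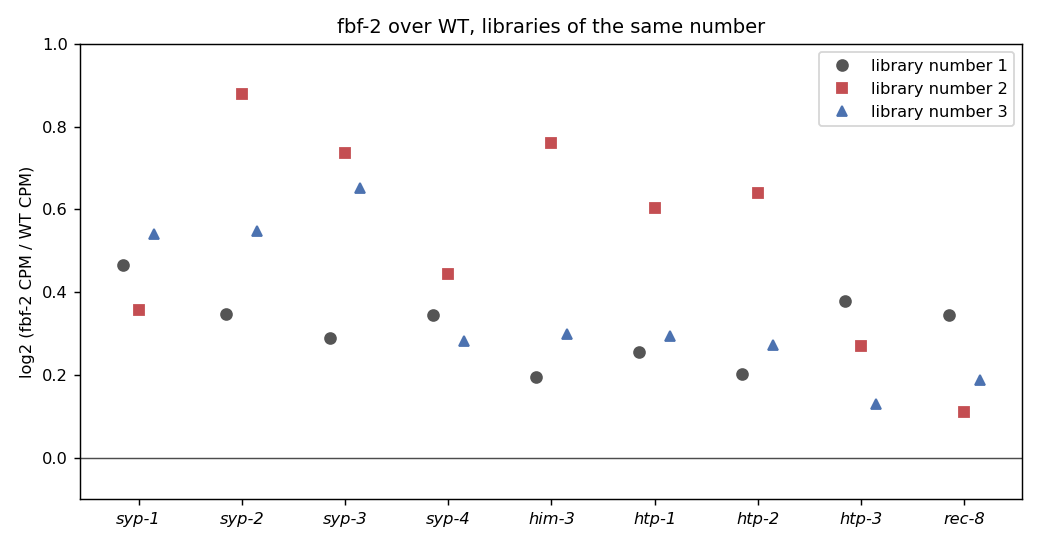
Log2 ratio of the CPM in an fbf-2 library to the CPM in the WT library of the same number (y axis) for each gene (x axis). All 27 points lie above 0, and the points of syp-2, syp-3 and him-3 are the most spread.

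The count of genes that rose depended on the libraries and on the scaling. Leaving out WT replicate 1 gave 6 of 9 higher without a block (18.4% of all genes tested), namely syp-1, syp-2, syp-3, htp-1, htp-2 and him-3. With the block, leaving out the number 1, 2 or 3 pair gave 7, 4 and 1, where 19.1%, 15.1% and 6.19% of all genes were called higher, and syp-2 was the gene that remained in each. With the block and either upper-quartile scaling (9.81% of all genes called higher) or scaling on germline-flagged genes (9.74%), the count was 2, syp-2 and syp-3. Under those scalings without a block the median of the 9 was 0.18 and that of all genes -0.11 or -0.12, and rec-8 turned to just under 0.

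The fold changes were read beside those of other germline genes. The median log2 fold change was 0.25 for the 9 genes, 0.09 for the 2551 other tested genes with the germline flag, 0.05 for the 1839 others with the FBF-2-bound flag and -0.04 for all genes. The CPM ranges lay wholly higher in fbf-2 for 7 of the 9 genes, where 24.7% of all genes tested did so. The 3052 other genes with the germline flag, tested or not, also lay wholly higher when summed. They held 279236 to 286562 CPM in fbf-2 and 247550 to 255979 CPM in WT. The 12 germline markers, which include the P granule genes pgl-1 and glh-1, had summed levels of 8375 to 8940 CPM in fbf-2 and 7218 to 10034 CPM in WT, with none at 0. Of these 0 rose and 1 fell, where 5.51% and 10.1% of all genes were called higher and lower. Without WT replicate 1, 6 fell (18.1% of all genes called lower). The 15 sperm markers summed to 22.6 to 35.5 CPM in fbf-2 and 40.2 to 57.9 CPM in WT. Of 11 tested 5 fell, where 10.1% of all genes were called lower. The 16 somatic markers summed to 39384 to 49354 CPM in fbf-2 and 42544 to 75416 CPM in WT. Of these 4 fell (10.1% of all genes called lower), 8 with the block (17.5%) and 11 without WT replicate 1 (18.1%), the lowest of WT. The 15 oocyte and embryo markers summed to 10200.4 to 10495.5 CPM in fbf-2 and 8923 to 10399 CPM in WT. Of these 0 rose and 2 fell, where 5.51% and 10.1% of all genes were called higher and lower. The part of these markers in the result was not tested.

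**Figure D5:**
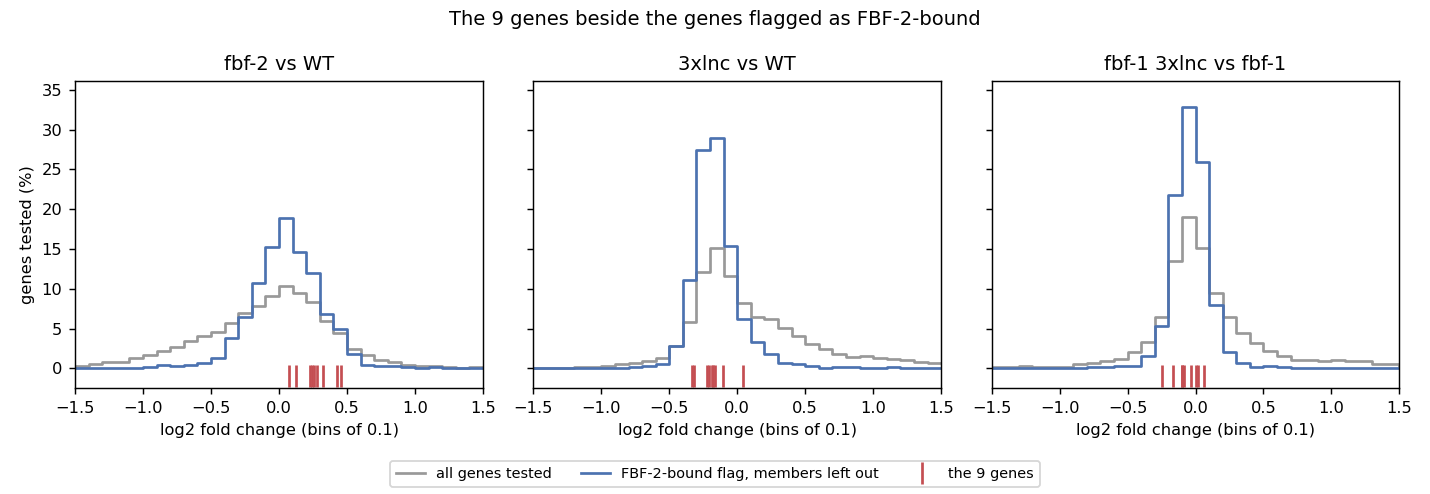
Distribution of log2 fold changes (x axis, bins of 0.1) as a percentage of genes tested (y axis), for all genes and for those with the FBF-2-bound flag, with a red tick for each of the 9 genes. In fbf-2 against WT the ticks lie between 0.08 and 0.45, to the right of the flagged genes' median of 0.05, and in 3xlnc against WT they lie around the flagged genes' median of -0.18.

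The makeup of the group moved little. Of the summed CPM of the 9 genes, syp-2 gave 9.01 ± 0.539% in fbf-2 and 7.76 ± 1.44% in WT, and rec-8 gave 13.3 ± 0.555% in fbf-2 and 14.8 ± 2.15% in WT (SD, n = 3 each). For both genes the ranges of the groups overlapped, so these shares, which do not depend on the scaling, did not separate the groups.

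Genes that act with the 9 were also examined, from lists of 13 other axis and central-region genes and 21 genes that regulate their assembly. These lists, too, were chosen with earlier results of these data known. Of the 13 other axis and central-region genes, 0 were called in fbf-2 against WT without a block, where 15.6% of all genes were called. With the block 3 rose, where 15.5% of all genes were called higher. The central-region gene syp-5 was at 86.4 ± 3.76 CPM in fbf-2 and 67.2 ± 2.49 CPM in WT (log2 fold change 0.23, adjusted p = 0.0876). The kleisin gene coh-3, which acts beside rec-8 in meiotic cohesin, was at 61.3 ± 2.90 CPM in fbf-2 and 46.5 ± 0.312 CPM in WT (log2 fold change 0.26, adjusted p = 0.0836). Without the block 8 of the 13 had positive log2 fold changes, where 6236 of the 13401 genes tested did. The 13 ran from -0.28 to 0.28 with a median of 0.13. When WT replicate 1 was left out, 3 rose and 1 fell, where 18.4% and 18.1% of all genes were called higher and lower.

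Of the 21 regulators 3 rose in fbf-2 and 0 fell, where 5.51% and 10.1% of all genes tested were called higher and lower. The immunophilin-type gene fkb-6 rose to 404 ± 4.64 CPM in fbf-2, against 270 ± 21.9 CPM in WT (log2 fold change 0.45, SE 0.0952, adjusted p = 0.0163). The gene prom-1, whose F-box protein promotes meiotic entry and pairing, rose to 95.4 ± 4.49 CPM, against 69.1 ± 3.91 CPM in WT (0.34, SE 0.0836, adjusted p = 0.0293). The RING-finger gene zhp-1, one of 4 zhp genes whose proteins sit on the synaptonemal complex and help place crossovers, rose to 27.1 ± 3.83 CPM, against 15.4 ± 5.62 CPM in WT (0.73, SE 0.199, adjusted p = 0.0415). With the block 7 of the 21 rose and 1 fell, where 15.5% and 17.5% of all genes were called higher and lower, and 8 rose and 2 fell when WT replicate 1 was left out, where 18.4% and 18.1% were. Under upper-quartile or germline-gene scaling 1 of the 21 rose, where 3.35% and 3.19% of all genes were called higher.

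The second comparison asked how levels differ when the linc genes are affected. In 3xlnc worms 8 of the 9 genes had a lower fitted level than in WT, with a median log2 fold change of -0.18, and syp-1 stood at 0.05. Positive log2 fold changes were found for 6710 of the 13861 genes tested, but for only 243 of the 1838 others with the FBF-2-bound flag. None of the 9 passed edgeR's test, where 11.5% of the 13861 genes tested were called, 9.41% higher and 2.11% lower. At an unadjusted p under 0.05 there were 2, syp-2 and htp-3, and the share of all genes at that level was not counted. DESeq2 called 1, htp-3, with 3.94% of all genes called lower. The WT libraries are those of the first comparison. The summed level of the 9 was 602 ± 11.7 CPM in 3xlnc and 670 ± 47.8 CPM in WT.

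The axis gene htp-3 had the largest difference. It was at 83.2, 83.7 and 82.3 CPM in 3xlnc, against 93.9, 99.8 and 111 CPM in WT. The groups did not overlap, the 3xlnc libraries were nearly equal, and the log2 fold change was -0.33 (SE 0.0992, adjusted p = 0.0599). The central-region gene syp-4 also did not overlap, with 114, 131 and 124 CPM in 3xlnc, against 132, 133 and 141 CPM in WT (log2 fold change -0.18, SE 0.0902, adjusted p = 0.205). These were the 2 genes with ranges wholly lower in 3xlnc, where 10.6% of all genes tested had such ranges.

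The gene syp-2 was at 41.7, 44.5 and 41.7 CPM in 3xlnc, against 67.4, 41.4 and 48.6 CPM in WT (log2 fold change -0.32, SE 0.138, adjusted p = 0.156). The 3xlnc libraries agreed closely, WT ranged on both sides of them, and WT replicate 1 was the highest. The same pattern held for him-3, at 67.6, 70.7 and 69.4 CPM in 3xlnc, against 102, 61.1 and 76.1 CPM in WT (-0.22, SE 0.136, adjusted p = 0.291). For syp-1 the groups overlapped, at 49.6, 50.8 and 45.3 CPM in 3xlnc, against 46.2, 48.7 and 42.3 CPM in WT. The log2 fold changes of syp-3, htp-1, htp-2 and rec-8 were -0.21, -0.18, -0.17 and -0.10, with adjusted p from 0.267 to 0.528. Without WT replicate 1, htp-3, syp-4 and rec-8 fell (3 of 9, where 16.4% of all genes were called lower).

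The size of these differences was close to that of other flagged genes and depended on the scaling. The median was -0.18 for the 9 genes, -0.17 for the 2689 others with the germline flag and -0.18 for the 1838 others with the FBF-2-bound flag. Summed over all 3052 others with the germline flag, the level was 222126 to 234845 CPM in 3xlnc and 247550 to 255979 CPM in WT, wholly lower. With scaling on germline-flagged genes, which moved the median of all genes to 0.14, the median of the 9 was -0.02, with syp-1 and rec-8 above 0. Sperm markers moved the other way, with summed levels of 92.6 to 127 CPM in 3xlnc and 40.2 to 57.9 CPM in WT. Of 12 tested 10 rose, where 9.41% of all genes were called higher. The germline markers summed to 7177 to 7922 CPM in 3xlnc and 7218 to 10034 CPM in WT. Of the 12, 0 were called, where 11.5% of all genes were. All 12 fell without WT replicate 1, where 16.4% of all genes were called lower. The oocyte and embryo markers summed to 8522 to 9026 CPM in 3xlnc and 8923 to 10399 CPM in WT. All 15 had negative log2 fold changes, with a median of -0.23, where 6710 of the 13861 genes tested had positive ones. Of the 15, 1 fell (2.11% of all genes called lower), or 13 without WT replicate 1, where 16.4% of all genes were called lower. The somatic markers summed to 60243 to 65218 CPM in 3xlnc and 42544 to 75416 CPM in WT. Of the 16, 2 rose and 0 fell, where 9.41% and 2.11% of all genes were called higher and lower. The part of these markers in the result was not tested.

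Of the 13 other axis and central-region genes, all had negative log2 fold changes in 3xlnc against WT, where 6710 of the 13861 genes tested had positive ones. Of the 13, 0 were called, where 11.5% of all genes were, although 10 fell without WT replicate 1, where 16.4% of all genes were called lower. The nearest to the threshold was skr-2, a Skp1-related gene whose product is part of the central region, at 116 ± 4.28 CPM in 3xlnc and 144 ± 22.6 CPM in WT (log2 fold change -0.35, adjusted p = 0.0558). Of the 21 regulators 3 fell, where 2.11% of all genes tested were called lower. The gene prom-1 fell to 55.1 ± 5.53 CPM, against 69.1 ± 3.91 CPM in WT (-0.36, SE 0.0959, adjusted p = 0.0396). The gene sun-1, for the nuclear envelope protein through which chromosome ends are moved during pairing, fell to 93.9 ± 5.38 CPM, against 114 ± 4.48 CPM in WT (-0.32, SE 0.0910, adjusted p = 0.0491). The gene zhp-2 fell to 28.0 ± 1.91 CPM, against 35.7 ± 2.45 CPM in WT (-0.40, SE 0.112, adjusted p = 0.0499). Without WT replicate 1 the count was 13 of the 21, where 16.4% of all genes were called lower. Under upper-quartile scaling, germline-gene scaling and the block 0 of the 21 fell, where 1.05%, 0.736% and 0.981% of all genes were called lower.

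The third comparison placed the linc mutations in the fbf-1 background. Of the 9 genes syp-1 alone passed the test, and it fell (1 of 9, where 17.9% of the 14104 genes tested were called, 9.43% higher and 8.49% lower). Its libraries held 47.4, 42.9 and 44.9 CPM in fbf-1 3xlnc, against 54.6, 56.1 and 51.9 CPM in fbf-1. The groups did not overlap, and the log2 fold change was -0.25 (SE 0.0421, edgeR adjusted p = 0.00509). The authors' deposited table gives syp-1 a log2 fold change of -0.26 and an adjusted p of 0.00256. The call was kept in 18 of 19 alternative fits, with adjusted p from 0.000983 to 0.0577, and lost in the blocked fit without the number 3 pair. F13A7.14, which shares exon sequence with syp-1, also fell (log2 fold change -0.17, SE 0.0404, adjusted p = 0.0231), so the reads behind the 2 calls cannot be fully told apart.

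The other 8 genes had log2 fold changes from -0.16 for syp-3 to 0.06 for syp-4, and none was called. The cohesin gene rec-8 was at 94.8, 97.4 and 96.9 CPM in fbf-1 3xlnc, against 102, 106 and 104 CPM in fbf-1. Its groups did not overlap, with a log2 fold change of -0.10 (SE 0.0393, adjusted p = 0.122). Together with syp-1 it made 2 of 9 genes wholly lower in fbf-1 3xlnc, where 21.2% of all genes tested were. For syp-3 the values were 24.3, 25.1 and 27.5 CPM in fbf-1 3xlnc, against 28.96, 27.1 and 30.4 CPM in fbf-1, with overlap (adjusted p = 0.155). The opposite-strand neighbour of syp-3, mrt-1, fell (-0.24, SE 0.0543, adjusted p = 0.0183).

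The HORMA-domain genes had log2 fold changes of 0.00 for htp-1, 0.02 for htp-3, -0.03 for him-3 and -0.10 for htp-2, and standard errors of 0.0454 to 0.0718. For him-3 the libraries held 71.1, 74.7 and 73.6 CPM in fbf-1 3xlnc, against 74.8, 74.4 and 76.7 CPM in fbf-1, with overlap. The libraries of this comparison were tight, and the summed level of the 9 was 616 ± 14.3 CPM in fbf-1 3xlnc and 639 ± 7.28 CPM in fbf-1. The median log2 fold change was -0.08 for the 9 genes, -0.03 for the other germline-flagged genes and 0.00 for all genes. Summed over all 3052 others with the germline flag, the level was 236770 to 246176 CPM in fbf-1 3xlnc and 248751 to 250850 CPM in fbf-1, wholly lower. The sperm markers summed to 51.1 to 119.1 CPM in fbf-1 3xlnc and 25.5 to 42.3 CPM in fbf-1. Of 13 tested 6 rose, where 9.43% of all genes were called higher. The somatic markers lay wholly lower, at 85437 to 86637 CPM in fbf-1 3xlnc and 93820 to 100270 CPM in fbf-1. Of the 16, 2 rose and 3 fell, where 9.43% and 8.49% of all genes were called higher and lower. The germline markers also lay wholly lower, at 7953 to 8112 CPM in fbf-1 3xlnc and 8123 to 8432 CPM in fbf-1, and the oocyte and embryo markers overlapped, at 10103 to 11023 CPM in fbf-1 3xlnc and 10982 to 11670.3 CPM in fbf-1. The part of these markers in the result was not tested.

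Of the 13 other axis and central-region genes 1 fell in fbf-1 3xlnc, where 8.49% of all genes tested were called lower. This was skr-2, at 109 ± 2.31 CPM against 126 ± 3.65 CPM in fbf-1 (log2 fold change -0.20, SE 0.0399, adjusted p = 0.0106). Its close paralogue skr-1 was at 147 ± 2.34 CPM in fbf-1 3xlnc and 158 ± 4.22 CPM in fbf-1 (-0.09, adjusted p = 0.130), and reads may be shared between them. Of the 21 regulators 1 rose and 3 fell, where 9.43% and 8.49% of all genes tested were called higher and lower. The gene akir-1, an akirin needed for orderly disassembly of the complex, rose to 193 ± 6.35 CPM, against 176 ± 3.12 CPM in fbf-1 (0.15, SE 0.0429, adjusted p = 0.0409). The genes that fell were fkb-6 (-0.15, adjusted p = 0.0272), zhp-1 (-0.38, adjusted p = 0.0231) and gras-1, whose product limits the pace of early prophase events (-0.19, adjusted p = 0.0409).

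Whether the linc mutations had different effects in the fbf-1 background and in the WT background was tested as an interaction over 12 libraries, taken as the effect in the fbf-1 background minus that in the WT background. The fbf-1 3xlnc and fbf-1 libraries are labelled polyA RNA and the 3xlnc and WT libraries total RNA. A difference between backgrounds and one between these RNA labels therefore cannot be told apart. None of the 9 genes passed, where 6.20% of the 14772 genes tested did (2.54% higher, 3.66% lower). The share of all genes with an unadjusted p under 0.05 was not counted, and 3 of the 9 had one. These were htp-3 (difference in log2 fold change 0.37, SE 0.124, adjusted p = 0.0981), syp-4 (0.26, SE 0.101, adjusted p = 0.161) and syp-1 (-0.28, SE 0.117, adjusted p = 0.182). So the fall of syp-1 in the fbf-1 background was not shown to differ from its change in the WT background. Without WT replicate 1, htp-3 and syp-4 passed, where 10.4% of all genes were called higher and 7.92% lower. With the block or with upper-quartile scaling 0 of the 9 passed, where 2.26% and 2.09% of all genes were called higher. The difference for syp-1 passed without WT replicate 2 (adjusted p = 0.0378) or with germline-gene scaling (adjusted p = 0.0361, where 6.15% of all genes were called lower).

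Across all 15 libraries the level of each of the 9 genes was highest in fbf-2, as a description that spans both RNA labels. The mean of their centred log2 CPM was 0.30 in fbf-2, -0.18 in 3xlnc, 0.00 in WT, -0.10 in fbf-1 3xlnc and -0.03 in fbf-1. Of 10357 genes with a mean of at least 50 counts, the 6 others whose profile lay nearest to this mean, by root mean square difference over 15 libraries, were adr-2 (0.0305), pid-3 (0.0410), pas-7 (0.0413), Y57A10A.8 (0.0424), F40F8.11 (0.0451) and srp-7 (0.0452). Of these adr-2 encodes an RNA-editing adenosine deaminase, pid-3 a protein of the piRNA pathway, pas-7 a proteasome subunit and srp-7 a serpin. Among the 9 themselves htp-2 lay nearest, at 0.0549 (rank 31), and syp-2 farthest, at 0.157 (rank 2479), with centred log2 values of 0.54 in fbf-2 and -0.26 in 3xlnc.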

How the data were processed

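Per the submitters' processing notes, the tools were STAR 2.7.9a, Subread 2.0.1 (featureCounts) and DESeq2 1.34.0, on the build WBcel235. Their settings, the annotation release, the strand option and the handling of multiply matching reads are not stated there. RNA was extracted with TRIzol and libraries made with an mRNA kit, per the labels' protocols. The authors deposited 3 tables of raw counts per gene, whole numbers per the file headers, with their own log2 fold changes, adjusted p-values and gene flags; the WT counts were identical in both tables that hold them, and 18 columns of normalised values were not used. The columns of fbf-1 3xlnc name the group without fixing which sample each is.

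Levels are CPM of total counts with SD over 3 libraries, and exon lengths come from the WBcel235 annotation, release 115 (46817 of 46904 identifiers matched). The tests used edgeR 4.0.16 under R 4.3.3, with low counts removed by filterByExpr, TMM scaling and the quasi-likelihood F test, on the whole table of each comparison, without a replicate block, with Benjamini-Hochberg adjustment over all genes tested and a threshold of 0.05. All 9 genes passed the filter in every comparison. Fold changes are mutant over control, and SE belongs to the log2 fold change. The procedure was also run on simulated counts that held no pair effect between libraries. Its outcome is not given here and was not used to read any result. Alternatives were other scalings (RLE, upper-quartile, TMM on germline-flagged genes) and filters, DESeq2 1.42.0, limma-voom (limma 3.58.1), the replicate block and leaving out each library; the block combined with scalings or left-out pairs was added after seeing the data. The numbers were taken to pair fbf-2 and WT libraries because every same-number correlation exceeded 0.1, read from these same libraries. The blocked p-values thus rest on a pairing read from the data they test. Named genes are the 9, the targeted genes, list genes called in a comparison or with the 2 smallest p-values in one, and the 6 nearest profiles. The members and lists were chosen with earlier results of these data known. Replicate libraries all differed by more than counting noise (chi-square over degrees of freedom at least 5.83).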

Additional observations from a re-analysis of the deposited data

Results flagged for a closer look

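In edgeR's interaction test, the effect of the linc mutations differed between backgrounds for 3 of the 21 regulators of synaptonemal complex assembly. Of all genes tested 6.20% were called. The libraries with the fbf-1 mutation are labelled polyA RNA, and those without it total RNA. The difference in log2 fold change was 0.44 for prom-1 (SE 0.118, adjusted p = 0.0388), 0.40 for sun-1 (SE 0.112, adjusted p = 0.0491) and 0.43 for akir-1 (SE 0.113, adjusted p = 0.0400). For prom-1 the log2 fold change was 0.07 in fbf-1 3xlnc against fbf-1 and -0.36 in 3xlnc against WT, for sun-1 0.06 and -0.32, and for akir-1 0.15 and -0.26. Background and RNA label cannot be told apart here. Of the 21, 3 passed as higher, where 2.54% of all genes did. The count was 3 with the block (2.26% of all genes), 2 with upper-quartile scaling (2.09%) and 9 without WT replicate 1 (10.4%), where 2 also passed as lower (7.92%). With germline-gene scaling 0 of the 21 passed as higher and 1 as lower, where 6.15% of all genes did.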

How the results depend on the processing

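Of the 9 genes, the count called in fbf-2 against WT was 0 without a block, 2 with DESeq2 and 7 with the replicate block. Of all genes tested, 5.51%, 10.5% and 15.5% were called higher in these fits. The count was 2 with RLE scaling, 2 with no count filter and 1 with limma-voom. No share of all genes is given here for those last fits, so their counts have no background to be read against. The replicate block joined with upper-quartile or germline-gene scaling gave 2 each, and without the number 1, 2 or 3 pair 7, 4 and 1. Leaving out single libraries gave 0 to 6, with 6 without WT replicate 1 and 1 without WT replicate 2. Over all genes that comparison called 2095, against 4413 with the replicate block, 4252 and 4261 with the block and those scalings, and 5126 and 4151 with the block and without the number 1 or 2 pair. Without fbf-2 replicate 1, 2 or 3 it called 789, 837 and 960, and without WT replicate 1, 2 or 3 it called 5003, 1120 and 698.

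In 3xlnc against WT the count of the 9 was 0, with 1 by DESeq2, 3 without WT replicate 1, 0 without any other single library, and 3 in the blocked fit without the number 1 pair. Over all genes it called 1596, against 2419 with germline-gene scaling, 395 to 4764 when single libraries were left out (lowest without 3xlnc replicate 1, highest without WT replicate 1), and 4953 and 578 with the block and without the number 1 or 3 pair. In fbf-1 3xlnc against fbf-1 syp-1 was the 1 gene called, and 0 were called in the blocked fit without the number 3 pair, which called 853 genes in all, against 2527; leaving out single libraries gave 1140 to 2720. The interaction called 0 of the 9, 1 with germline-gene scaling and 0 to 2 without single libraries, and 916 genes in all, with 545 to 2763 (lowest without 3xlnc replicate 1, highest without WT replicate 1). Same-numbered libraries of 3xlnc and WT, or of fbf-1 3xlnc and fbf-1, did not all deviate together, and the replicate block left the counts of the 9 at 0 and 1 there. The causes of these changes were not tested. A fit that leaves 2 libraries in a group assumes that they vary like the rest. With 3 libraries a group and fold changes under 1.5, a gene that missed the threshold is not shown to be equal between groups.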
